A study of Mus musculus with 8 samples.

Results

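The MYC-MAX network was followed in mouse pluripotent cells through 10 of its genes, chosen by name: Myc, Mycn, Max, Mxd1, Mxd3, Mxd4, Mxi1, Mnt, Mga and Mlx. These are 10 of the 22987 genes listed at a single locus in the expression tables. Polyadenylated RNA was sequenced from 4 libraries of embryonic stem cells (mESC), a model of the naive inner cell mass, and from 4 libraries of epiblast stem cells (mEpiSC), a model of the primed epiblast after implantation. The mESC medium held the cytokine LIF, and replicates 1 and 2 were line ESF122 while replicates 3 and 4 were line ESF175/1. The mEpiSC medium held the growth factor FGF2; here replicate 1 was EpiSC5, replicates 2 and 3 were both EpiSC7, and replicate 4 was EpiSC9. All lines shared a basal medium with serum replacement and a layer of irradiated mouse embryonic fibroblasts, which was removed before RNA was taken. The labels name no genetic change in any line, and LIF or FGF2 cannot be told apart from the cell state. No label says whether libraries of a line were separate cultures, so p-values measure the spread between these libraries, which may be technical.

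MYC, MYCN and their relative MYCL are transcription factors that bind DNA only as heterodimers with MAX, mostly at the E-box sequence CACGTG, where they promote growth, ribosome production and proliferation. The MXD proteins, MXI1, MNT and MGA compete for the same MAX partner and repress transcription, MXD and MNT through the SIN3-HDAC corepressor and MGA within a Polycomb complex called PRC1.6. MLX is a parallel partner that pairs with some MXD proteins and with the glucose-responsive factors MLXIP and MLXIPL. In mouse embryonic stem cells, LIF signalling is known to sustain Myc, and Myc and Mycn are partly redundant.

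Because E-boxes are the sites that these proteins bind, the promoters of the members themselves were searched for them. RefSeq (GRCm38.p6) gave the 250 bases before the start for 9 of the 10 members; Myc has no entry there. An E-box, CACGTG, which reads the same on both strands, lay in the promoters of 3 of the 9 members, Mxd4, Mnt and Mlx, against 10.3% of the 8310 tested genes and 6.86% of all 27025 genes with a promoter entry, counting a gene where any of its promoters held the letters. The 3 windows are shown 5′ to 3′ on the strand of the gene, with the E-box in capitals.
Mxd4, chr5:34187904-34187949, minus strand, E-box 219 bases before the start: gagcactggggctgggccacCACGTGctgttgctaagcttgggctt
Mnt, chr11:74830781-74830826, plus strand, E-box 123 bases before the start: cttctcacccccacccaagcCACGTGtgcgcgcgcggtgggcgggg
Mlx, chr11:101087230-101087275, plus strand, E-box 40 bases before the start: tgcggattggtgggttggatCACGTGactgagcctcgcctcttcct
The match is a description of these letters and shows no binding. Of the 3 genes with an E-box, Mxd4 was higher in mEpiSC, while Mlx and Mnt did not pass the test, as given below.

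Levels are the deposited FPKM (fragments per kilobase of a transcript, relative to library depth), summarised as mean ± SD over the 4 libraries of a state. A fold change subtracts the mESC mean from the mEpiSC mean of log2(FPKM + 1), a scale that understates the change of low genes, and has a standard error (SE). Its p-value comes from limma with Benjamini-Hochberg adjustment over the 11556 genes that reached 1 FPKM in 4 or more libraries. All 10 members passed this filter, and 9 of them were at 1 FPKM or more in all 8 libraries. Mxd1 reached that level in 5. Gene positions are in mm9, as the tables list them. Libraries held an estimated 24800000 to 38600000 fragments, if the deposited intervals are taken as counting error only, which was not checked. The labelled states were checked on markers: 8 of 8 naive markers were lower in mEpiSC, led by Zfp42, which went from 130 ± 45.4 to 0.193 ± 0.207 FPKM. Of 6 primed markers 5 were higher, Fgf5 among them (2.76 ± 3.94 against 48.5 ± 36.8 FPKM). The core factor Pou5f1 stood at 508 ± 50.6 and 450 ± 121 FPKM (adjusted p = 0.44). Of the 16 fibroblast markers 5 were higher in mEpiSC and 0 lower, and their summed level ran from 8.44 to 300.3 FPKM in mESC and from 76.9 to 555.1 FPKM in mEpiSC. Of 5 tested markers of primitive endoderm 4 were higher in mEpiSC. The 6 trophoblast markers summed to 16.5 to 19.4 FPKM in mESC and 5.02 to 12.4 FPKM in mEpiSC. Of these, Cdx2, Elf5 and Hand1 were under 1 FPKM in all libraries, Tfap2c was lower in mEpiSC (13.6 ± 1.001 against 3.77 ± 2.39 FPKM), and Krt7 and Ascl2 did not pass the test.

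In brief, Mxd4 rose and Max, Mxd3 and Mga fell from mESC to mEpiSC, while neither Myc nor Mycn passed the test. With each line averaged to 1 value, limma still called Mxd4 (adjusted p = 0.0083) but not Max, Mxd3 or Mga (0.12, 0.13 and 0.068). The share of members called with libraries kept separate, 4 of 10, was close to that of all genes, of which 37.3% were called: 23.1% higher and 14.2% lower. Libraries of the states did not overlap for 5 of 10 members (Max, Mxd3, Mxd4, Mxi1 and Mga), against 37.1% of all genes. The median log2 fold change was −0.17 over the 10 members and 0.08 over all genes. With median ratio scaling the median of all genes was −0.05, and with quantile normalization −0.02, a shift of a little over 0.1. The share of calls that were higher was 61.9% in the deposited scale, 47.5% with median ratio scaling and 49.8% with quantile normalization. In bulk RNA, fewer cells of a type and less RNA per cell cannot be told apart.

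**Figure D1:**
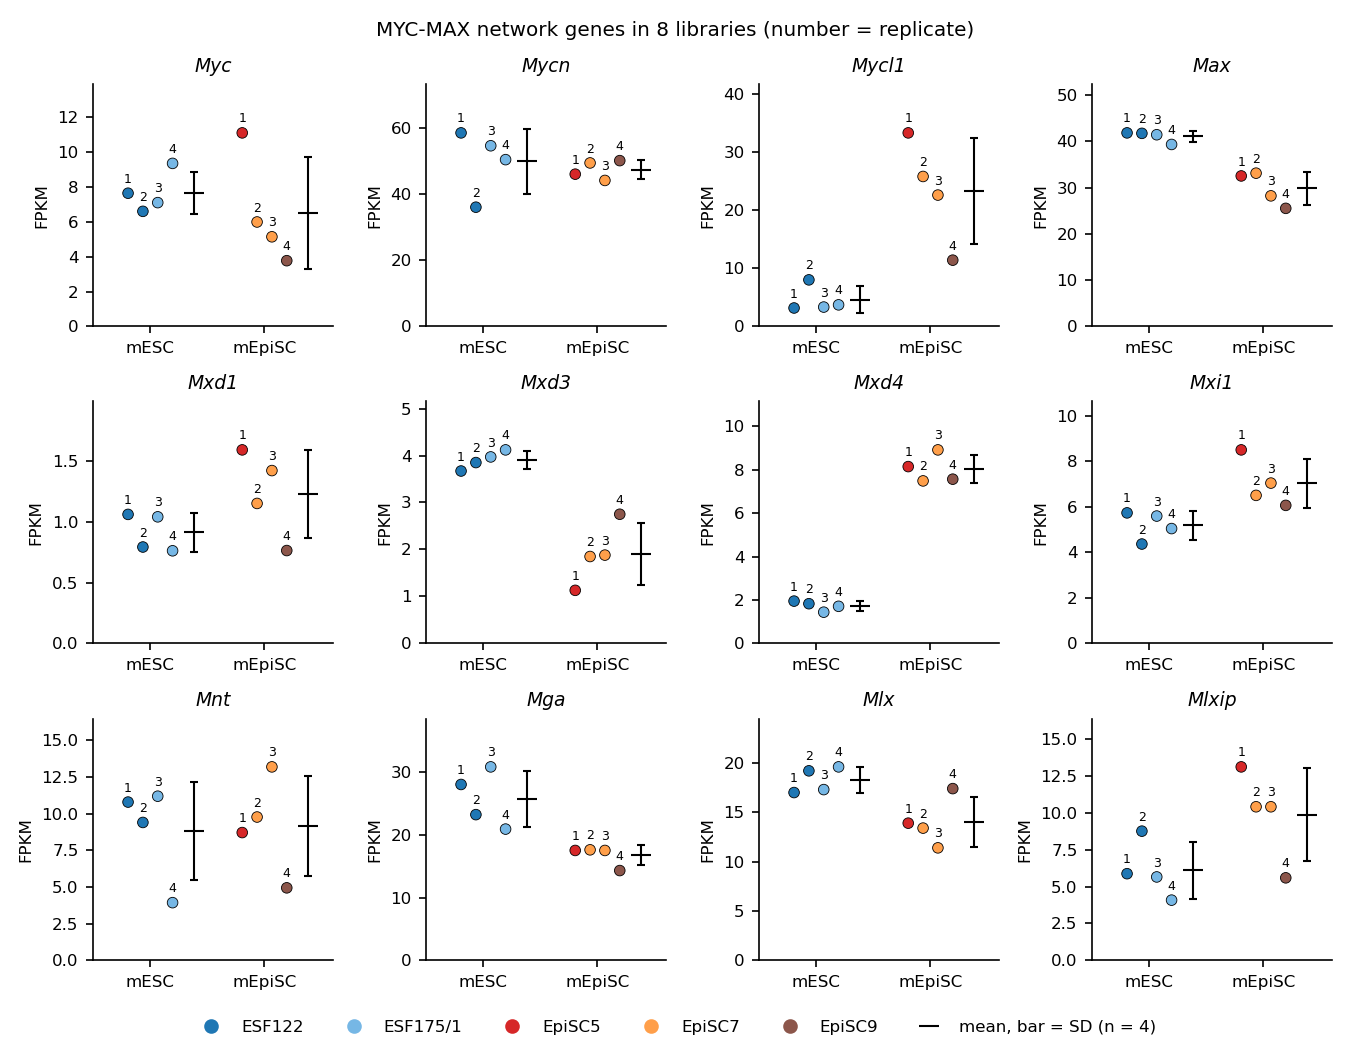
FPKM (vertical axes, starting at 0) of the 10 members and of Mycl1 and Mlxip in each library, coloured by cell line and numbered by replicate, with the mean and SD of each state (n = 4). Mxd4 sits at 1.95 or less in the mESC libraries and at 7.49 or more in mEpiSC, while the ranges of Myc, Mycn and Mnt overlap between the states.

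Among the activators, Mycn was the most abundant in every library. Mycn (chr12:12942898-12948642) stood at 58.6, 36.1, 54.7 and 50.5 FPKM in mESC 1 to 4 and at 46.1, 49.5, 44.2 and 50.2 FPKM in mEpiSC 1 to 4. The mEpiSC libraries all fell inside the mESC range, whose lowest library was mESC 2. Means were 49.96 ± 9.81 and 47.5 ± 2.85 FPKM, and the log2 fold change was −0.05 (SE 0.16, 95% interval −0.40 to 0.30, adjusted p = 0.83). The interval includes differences in either direction.

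Myc (chr15:61816895-61821916), the founding member of the family, was lower than Mycn throughout. Its level was 7.64, 6.60, 7.10 and 9.35 FPKM in mESC 1 to 4 and 11.1, 5.99, 5.14 and 3.77 FPKM in mEpiSC 1 to 4. The states overlapped, because the EpiSC5 library was the highest of all 8 and the other 3 mEpiSC libraries were below every mESC library. The means were 7.67 ± 1.20 and 6.50 ± 3.195 FPKM, with a log2 fold change of −0.29 (SE 0.26, 95% interval −0.88 to 0.31, adjusted p = 0.43). In 20 alternative fits Myc was called in 0, with adjusted p from 0.05036 to 0.97.

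Mycl1 (chr4:122673341-122679723), which encodes the third family member MYCL and is not among the 10, was the activator that rose. It stood at 3.17, 8.01, 3.33 and 3.71 FPKM in mESC 1 to 4 and at 33.3, 25.8, 22.6 and 11.4 FPKM in mEpiSC 1 to 4. All mEpiSC libraries exceeded all mESC libraries, with EpiSC9 the lowest of them and mESC 2 the highest mESC library. Its mean went from 4.55 ± 2.32 to 23.3 ± 9.12 FPKM, a log2 fold change of 2.11 (SE 0.35, adjusted p = 0.0020), and it was called in all 20 alternative fits (adjusted p 0.00068 to 0.041). With the fibroblast markers as a covariate the log2 fold change was 1.92 (adjusted p = 0.018). The libraries mESC 1 and mEpiSC 2 had like fibroblast marker levels, with mean log2 values of 3.37 and 3.43, and Mycl1 at 3.17 and 25.8 FPKM. This pair also differs in line, medium and state, and the part of fibroblasts in the Mycl1 difference was not tested.

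The makeup of the MYC family thus differed between the states at the RNA level. Summed FPKM of Myc, Mycn and Mycl1 was 69.4, 50.7, 65.1 and 63.5 in mESC 1 to 4 and 90.5, 81.3, 71.9 and 65.4 in mEpiSC 1 to 4, so the states overlapped. Mycl1 made up 4.57% to 15.8% of this sum in mESC (7.83% ± 5.34, n = 4) and 17.4% to 36.8% in mEpiSC (29.3% ± 8.35, n = 4), without overlap. The shares of Mycn ran from 71.2% to 84.4% and from 51.0% to 76.9%, and those of Myc from 10.9% to 14.7% and from 5.77% to 12.3%, both with overlap. These shares describe RNA per length, not protein, and they were not tested.

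Of the other relatives, Bmyc stood at 11.6 ± 4.26 and 13.2 ± 5.17 FPKM (adjusted p = 0.68), but 60.9% of the 50-base windows of its transcripts also occur in an antisense gene, and the use of strand is not given, so its level is uncertain. Mycs was at 0.076 FPKM or less in all 8 libraries and was not tested.

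**Figure D2:**
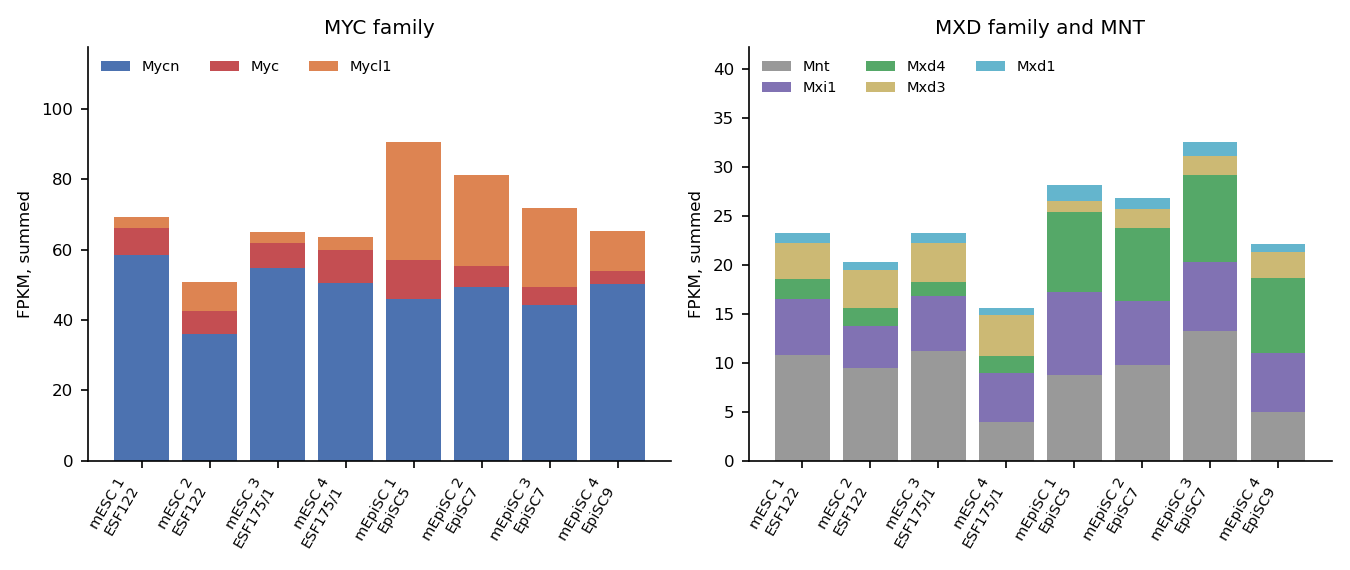
Summed FPKM (vertical axes) per library and cell line (horizontal axes), stacked by gene, for the MYC family on the left and for the MXD genes with Mnt on the right. Mycn is the largest part of every left bar, and Mycl1 and Mxd4 take a larger share of the mEpiSC bars than of the mESC bars.

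Max and Mlx encode the shared partners with which the other members pair. Max (chr12:78038255-78063235) stood at 41.8, 41.7, 41.4 and 39.3 FPKM in mESC 1 to 4 and at 32.5, 33.1, 28.2 and 25.5 FPKM in mEpiSC 1 to 4. Every mEpiSC library was below every mESC library. The mean fell from 41.1 ± 1.18 to 29.8 ± 3.63 FPKM, a log2 fold change of −0.45 (SE 0.11, adjusted p = 0.013). With each line averaged to 1 value the estimate was −0.47 and the call was lost (adjusted p = 0.12).

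The ratio of MYC family FPKM to Max FPKM was 1.22 to 1.66 in mESC (1.52 ± 0.204, n = 4) and 2.45 to 2.78 in mEpiSC (2.59 ± 0.138, n = 4). The ranges did not overlap, and the ratio joins 2 changes already given, the rise of Mycl1 and the fall of Max.

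Mlx (chr11:100948603-100953521) stood at 17.0, 19.2, 17.3 and 19.6 FPKM in mESC and at 13.9, 13.4, 11.4 and 17.4 FPKM in mEpiSC. The EpiSC9 library lay within the mESC range and the other 3 mEpiSC libraries lay below it. Means were 18.3 ± 1.31 and 14.02 ± 2.48 FPKM, with a log2 fold change of −0.37 (SE 0.14, adjusted p = 0.062). Mlx passed the test with the replicate block (adjusted p = 0.035), with median ratio scaling (0.014), with quantile normalization (0.020), without mEpiSC 4 (0.014) and with replicates 1 to 3 only (0.018). Of its transcript windows 16.5% also occur in Psmc3ip, which overlaps it on the opposite strand.

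Of Mlx's glucose-responsive partners, Mlxip stood at 5.87, 8.75, 5.65 and 4.08 FPKM in mESC and at 13.1, 10.4, 10.4 and 5.59 FPKM in mEpiSC. Again EpiSC9 lay within the mESC range and the others above it. The log2 fold change of Mlxip was 0.60 (SE 0.27, adjusted p = 0.11). It passed with the replicate block (adjusted p = 0.028), without mEpiSC 4 (0.017) and with replicates 1 to 3 only (0.022). Mlxipl had a mean of 1.22 ± 0.588 FPKM in mESC and 1.52 ± 0.665 FPKM in mEpiSC (adjusted p = 0.61).

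Among the MXD repressors, Mxd4 showed the largest change of the 10 members. Mxd4 (chr5:34519228-34530359), an MXD protein linked to differentiation, stood at 1.95, 1.83, 1.44 and 1.71 FPKM in mESC 1 to 4 and at 8.15, 7.49, 8.92 and 7.57 FPKM in mEpiSC 1 to 4. The states were far apart and each was tight. The mean rose from 1.73 ± 0.215 to 8.04 ± 0.661 FPKM, a ratio of 4.64, with a log2 fold change of 1.73 (SE 0.13, 95% interval 1.44 to 2.01, adjusted p = 4.0e-05). Mxd4 was called in all 19 alternative fits in which it was tested, with log2 fold changes from 0.95 to 2.15 and adjusted p from 2.3e-05 to 0.0083. With the fibroblast markers as a covariate the value was 1.68 (adjusted p = 0.00075). In mESC 1 and mEpiSC 2, whose fibroblast marker levels were alike, Mxd4 was at 1.95 and 7.49 FPKM. These libraries also differ in line, medium and state, and the part of fibroblasts in the difference was not tested. Of the 50-base windows of its transcripts 11.8% also occur in other genes, and an antisense gene overlaps it.

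Mxd3 (chr13:55426528-55431091), an MXD protein known from proliferating cells, changed in the opposite direction. It stood at 3.67, 3.85, 3.97 and 4.12 FPKM in mESC 1 to 4 and at 1.13, 1.85, 1.88 and 2.75 FPKM in mEpiSC 1 to 4. The states did not overlap, with EpiSC5 the lowest library and EpiSC9 the nearest to mESC. The mean fell from 3.90 ± 0.189 to 1.90 ± 0.663 FPKM, a log2 fold change of −0.79 (SE 0.18, adjusted p = 0.0090). The call was lost with each line averaged to 1 value (−0.79, adjusted p = 0.13) and with the fibroblast markers as a covariate (−0.56, adjusted p = 0.077).

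Mxi1 (chr19:53384995-53450300), which encodes the MXD family protein also called MXD2, stood at 5.74, 4.37, 5.60 and 5.05 FPKM in mESC and at 8.51, 6.51, 7.05 and 6.07 FPKM in mEpiSC. The ranges did not overlap, and EpiSC5 was again the highest. Means were 5.19 ± 0.623 and 7.04 ± 1.06 FPKM, with a log2 fold change of 0.37 (SE 0.14, adjusted p = 0.066). With the replicate block the adjusted p was 0.041, and without mEpiSC 4 it was 0.042. Mxi1 was called in none of the 18 other fits, with adjusted p up to 0.36.

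Mxd1 (chr6:86597038-86619153), the MXD protein best known from differentiating blood and epithelial cells, was the least expressed member, at 0.912 ± 0.158 and 1.23 ± 0.361 FPKM. Its libraries ran from 0.761 to 1.06 FPKM in mESC and from 0.763 to 1.59 FPKM in mEpiSC, and the difference did not pass the test (log2 fold change 0.21, adjusted p = 0.33). The deposited intervals were 9.75% to 17.5% of its value on either side.

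Summed over Mxd1, Mxd3, Mxd4 and Mxi1, the MXD family ran from 10.8 to 12.4 FPKM in mESC (11.7 ± 0.674, n = 4) and from 17.0 to 19.4 FPKM in mEpiSC (18.2 ± 1.299, n = 4). Mxd4 made up 12.0% to 16.9% of this sum in mESC and 42.0% to 46.3% in mEpiSC. Mxd3 made up 29.6% to 35.6% in mESC and 5.81% to 16.0% in mEpiSC. None of these ranges overlapped, and Mxd3 exceeded Mxd4 in every mESC library while Mxd4 exceeded Mxd3 in every mEpiSC library. With Mnt added, the sum ran from 15.6 to 23.2 FPKM in mESC and from 22.1 to 32.4 FPKM in mEpiSC, with overlap. These sums and shares were not tested.

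Mnt (chr11:74644425-74659227), the broadly expressed MAX-binding repressor, did not pass the test between the states. It stood at 10.8, 9.41, 11.2 and 3.94 FPKM in mESC 1 to 4 and at 8.72, 9.78, 13.2 and 4.95 FPKM in mEpiSC 1 to 4. The library of replicate 4 was the lowest in each state. Means were 8.83 ± 3.34 and 9.16 ± 3.38 FPKM, with a log2 fold change of 0.07 (SE 0.34, adjusted p = 0.90), which was −0.07 with median ratio scaling.

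Mga (chr2:119722963-119795317) encodes the largest protein of the network, with a T-box domain besides the MAX-binding domain. It stood at 28.0, 23.2, 30.8 and 20.9 FPKM in mESC 1 to 4 and at 17.5, 17.6, 17.5 and 14.3 FPKM in mEpiSC 1 to 4. All mEpiSC libraries were below all mESC libraries. The mean fell from 25.7 ± 4.47 to 16.7 ± 1.62 FPKM, a log2 fold change of −0.58 (SE 0.15, adjusted p = 0.013). The call was lost with lines as a random block (adjusted p = 0.061) and with each line averaged to 1 value (adjusted p = 0.068).

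**Figure D3:**
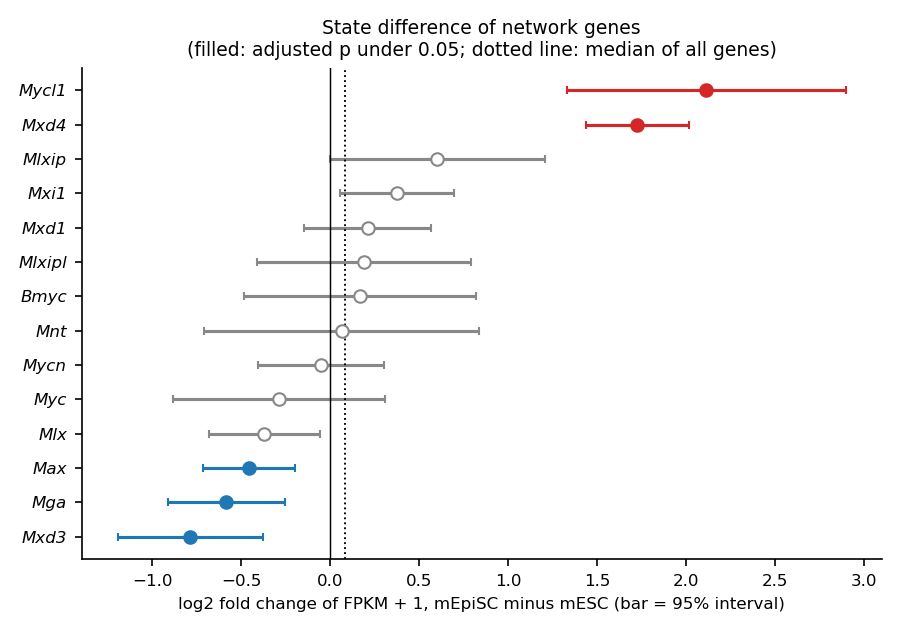
Log2 fold change of FPKM + 1, mEpiSC minus mESC, with its 95% interval (horizontal axis) for the 10 members and the 4 tested relatives (vertical axis), filled where the adjusted p is under 0.05. Mycl1 at 2.11 and Mxd4 at 1.73 lie to the right, and Max, Mga and Mxd3 lie to the left of 0.

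Genes were ranked on the FPKM scale, which is per transcript length. Sequence shared with other genes differs between members, for example 0.0% of windows for Mycn and 16.5% for Mlx. The use of strand is not given, so the order is approximate. In mESC the order of the means was Mycn, Max, Mga, Mlx, Mnt, Myc, Mxi1, Mxd3, Mxd4 and Mxd1. The libraries of Mycn overlapped those of Max, and those of Mnt overlapped those of Myc and of Mxi1, while all other neighbours in this order were separate. In mEpiSC the order was Mycn, Max, Mga, Mlx, Mnt, Mxd4, Mxi1, Myc, Mxd3 and Mxd1. There the libraries of Mga overlapped those of Mlx, those of Mlx those of Mnt, and those of Mnt, Mxd4, Mxi1 and Myc each other, as did those of Mxd3 and Mxd1. Mxd4 thus moved from next to last in mESC to a group of like level with Mnt and Myc in mEpiSC.

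Between the mESC lines, 0 of 10 members were called for ESF175/1 minus ESF122, and 0 had an unadjusted p under 0.05. This limma fit kept the libraries separate and gave each line its own mean. Of all 11556 genes tested, 88, or 0.762%, were called and 1723 had an unadjusted p under 0.05. Mnt was called without mESC 3 (log2 fold change −1.16, adjusted p = 0.021), a fit that called 12.9% of all genes and leaves ESF175/1 with the low library mESC 4, which is then assumed to vary like the other lines.

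Among the 3 mEpiSC lines, 0 of 10 members were called by an F test and 2 had an unadjusted p under 0.05. Of all 11556 genes tested, 300 (2.60%) were called and 2856 had an unadjusted p under 0.05. EpiSC5 and EpiSC9 have 1 library each, whose spread is assumed from the other lines. Myc had the lowest p of the members (0.0040, adjusted 0.075), with 11.1 FPKM in EpiSC5, 5.99 and 5.14 FPKM in EpiSC7 and 3.77 FPKM in EpiSC9. Relative to EpiSC5, Myc was −0.88 in EpiSC7 and −1.34 in EpiSC9 on the log2 scale. Without mESC 3 or without mESC 4, libraries that bear on this test only through the shared spread, 2 members were called: Myc (adjusted p = 0.017 in each) and Mnt (0.036 and 0.035). Each of these fits called 20.5% of all genes, so 2 of 10 members is close to the share of all genes there. Mxd3 followed (limma F test, unadjusted 0.025, adjusted p = 0.15). Its order over the lines was the reverse of Myc's, lowest in EpiSC5 and highest in EpiSC9. Mycl1 ran in the same order as Myc, from 33.3 FPKM in EpiSC5 to 11.4 FPKM in EpiSC9 (limma F test, unadjusted 0.041, adjusted p = 0.18). The mean log2 level of the fibroblast markers also fell in this order over the 4 libraries, from 4.16 in mEpiSC 1 through 3.43 and 2.88 to 2.33 in mEpiSC 4, and its part in these differences was not tested.

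**Figure D4:**
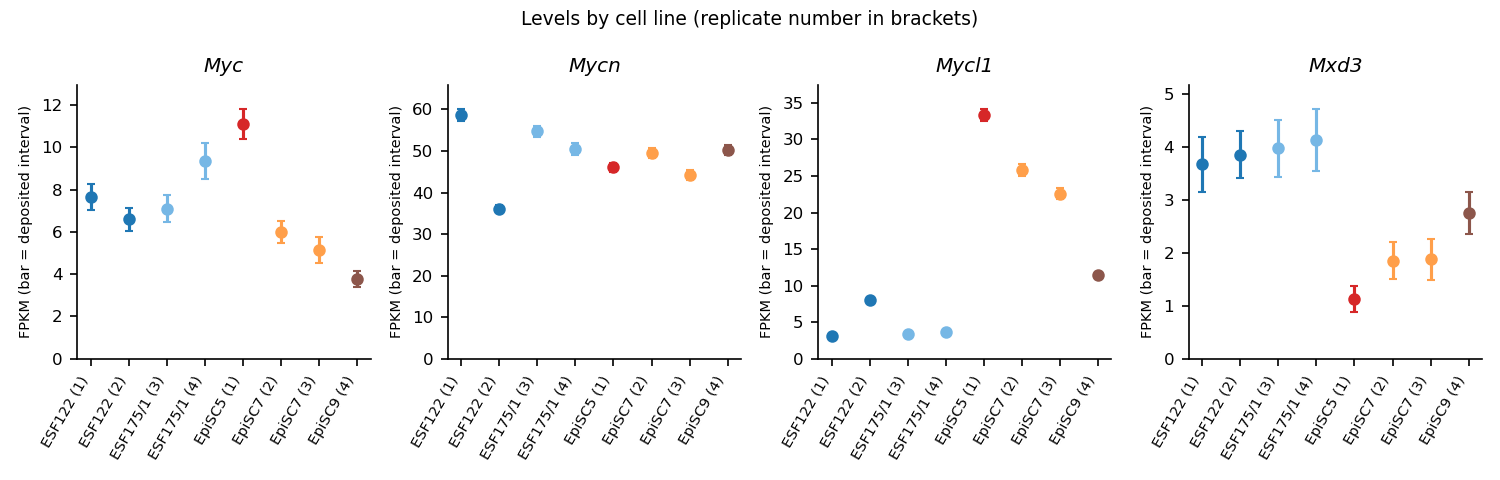
FPKM (vertical axes, starting at 0) of Myc, Mycn, Mycl1 and Mxd3 in each library, ordered and coloured by cell line, with the deposited interval as bars. Over EpiSC5, EpiSC7 and EpiSC9, Myc goes from 11.1 to 3.77 and Mycl1 from 33.3 to 11.4, while Mxd3 goes from 1.13 to 2.75 and Mycn stays between 44.2 and 50.2.

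The genes whose levels most resembled those of Myc over the 8 libraries were Sec31a (Pearson r = 0.974), Ibtk (0.942), Bcar3 (0.939), Yy2 (0.927) and Dhx33 (0.915), out of 7592 candidates. Of these, Sec31a, Bcar3, Yy2 and Dhx33 were highest in mEpiSC 1, as Myc was, and all 5 were lowest in mEpiSC 4. For Mycn they were Hk2 (0.865), Smtnl2 (0.797), Socs3 (0.791), Nid1 (0.783) and Pcolce (0.746). Of these, Hk2, Smtnl2, Socs3 and Nid1 were lowest in mESC 2, the library where Mycn was lowest. Socs3, a feedback inhibitor of LIF signalling, ran from 4.21 to 45.3 FPKM over the mESC libraries. These correlations are over 8 libraries that share lines, and they were picked as the highest of many, so they are descriptions only.

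Of 16 cofactors with which MYC acts on transcription, 0 rose and 2 fell. The fallen were Wdr5, a scaffold of histone methyltransferases that also binds MYC (70.7 ± 5.99 to 44.7 ± 4.35 FPKM, log2 fold change −0.65, adjusted p = 0.0029), and Actl6a, a subunit of chromatin remodelling complexes (88.4 ± 5.41 to 65.2 ± 6.65 FPKM, −0.44, adjusted p = 0.016). The call of Actl6a was lost with lines as a random block (adjusted p = 0.053), with each line averaged (0.13) and with the fibroblast covariate (0.10). That of Wdr5 was lost with each line averaged (0.061). Of Actl6a's windows 18.0% also occur in other genes. The median of the 16 was −0.002 against 0.08 over all genes. Of the 16, 12.5% were called, all lower, against 37.3% of all genes called and 14.2% called lower.

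Of 13 genes of the SIN3-HDAC corepressor, which MXD proteins and MNT recruit, 1 rose and 1 fell, or 15.4% called against 37.3% of all genes. The deacetylase Hdac2 rose from 76.1 ± 13.7 to 111.6 ± 11.8 FPKM (log2 fold change 0.56, adjusted p = 0.018), but it was not called when mESC 1 (0.057), mESC 2 (0.052) or mEpiSC 3 (0.053) was left out, nor with median ratio scaling (0.057), with lines as a random block (0.051) or with each line averaged (0.13). Its relative Hdac1 fell from 2.43 ± 0.126 to 1.61 ± 0.358 FPKM (−0.40, adjusted p = 0.049), lost with the replicate block (0.060) and without any library but mEpiSC 4 (0.085 to 0.13). The Hdac1 call was also lost with a pseudocount of 0.1 (0.054), lines as a random block (0.14), each line averaged (0.30) and the fibroblast covariate (0.22). Of Hdac1's transcript windows 58.7% also occur in other genes, so its level is uncertain. With the replicate block 1 rose and 2 fell. The scaffolds Sin3a (43.1 and 36.6 FPKM) and Sin3b (68.8 and 68.3 FPKM) did not pass the test.

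MGA's own complex, PRC1.6, a Polycomb repressor known to silence germline genes in mouse embryonic stem cells, changed in both directions. Of its 12 other genes, 4 rose and 6 fell, or 83.3% called against 37.3% of all genes, with a median of −0.34. Among those that fell was L3mbtl2, a chromatin-binding subunit, from 41.1 ± 4.14 to 20.7 ± 2.14 FPKM (log2 fold change −0.96, SE 0.12, adjusted p = 6.8e-04). Pcgf6, the subunit that defines the complex, named here after its value was seen, fell from 38.7 to 21.2 FPKM (−0.84, adjusted p = 5.5e-04). Mga itself fell too, as given above. The other 4 that fell were Tfdp1, Rybp, Wdr5 and Hdac1, and 24.5% of Tfdp1's windows are shared with another gene.

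Among the PRC1.6 genes that rose were subunits with a close relative in the list. Yaf2, a close relative of Rybp, rose from 6.49 ± 2.19 to 17.5 ± 1.70 FPKM (log2 fold change 1.35, adjusted p = 0.0015). Rybp fell from 15.7 to 10.7 FPKM (−0.49, adjusted p = 0.045). The Rybp call was near the threshold of 0.05, and its result in single alternative fits is not given here. Ring1, a ubiquitin ligase of Polycomb complexes, rose from 4.06 ± 0.746 to 8.97 ± 2.47 FPKM (0.95, adjusted p = 0.0064), while its relative Rnf2 stood at 43.5 and 45.6 FPKM (adjusted p = 0.70). The Ring1 call was lost with each line averaged (adjusted p = 0.088). E2f6, a repressive E2F factor that brings the complex to DNA, rose from 13.1 ± 4.29 to 26.8 ± 3.05 FPKM (1.03, adjusted p = 0.0043). Hdac2, given above, was the fourth. With the fibroblast covariate 4 rose and 3 fell, and with each line averaged 2 rose and 3 fell. Leaving out mESC 1, mESC 3, mESC 4, mEpiSC 2 or mEpiSC 3 left 4 that fell.

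MYC protein is short-lived, and 15 genes of its turnover gave 2 that rose and 2 that fell (26.7% called against 37.3% of all genes, median 0.01), or 3 and 4 with the replicate block. Usp28, a deubiquitinase that stabilises MYC, fell from 36.9 ± 10.4 to 14.9 ± 3.16 FPKM (log2 fold change −1.23, SE 0.23, adjusted p = 0.0036). Gsk3b, the kinase that marks MYC for destruction, rose from 10.9 ± 3.01 to 20.8 ± 5.25 FPKM (0.87, adjusted p = 0.018), a call that was lost without mESC 3, mEpiSC 2 or mEpiSC 3 (adjusted p 0.055, 0.050 and 0.056), with the fibroblast covariate (0.14) and in the fits by line (0.051 and 0.14). Trim32, a ubiquitin ligase for MYC, rose from 9.05 ± 1.20 to 16.0 ± 2.93 FPKM (0.75, adjusted p = 0.0057), and this was lost with each line averaged (0.054). Set, an inhibitor of the phosphatase that destabilises MYC, fell from 227 ± 10.6 to 170 ± 12.0 FPKM (−0.42, adjusted p = 0.014), lost without mEpiSC 3 (0.051), with the fibroblast covariate (0.051) and in the fits by line (0.064 and 0.14), and 35.7% of its windows occur in other genes. Fbxw7, the ubiquitin ligase subunit that recognises phosphorylated MYC, stood at 11.1 and 9.17 FPKM (adjusted p = 0.38).

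Known MYC target genes were grouped by function. Of 22 targets in the nucleolus and in ribosome production, 0 rose and 14 fell, or 63.6% called against 37.3% of all genes and 14.2% called lower, with a median log2 fold change of −0.51 and all 22 values below 0 on the deposited scale. Mybbp1a, a nucleolar regulator of RNA polymerase I, fell from 144 ± 7.42 to 80.6 ± 28.2 FPKM (−0.89, adjusted p = 0.012). Polr1b, a core subunit of that polymerase, fell from 39.3 ± 2.53 to 22.5 ± 4.88 FPKM (−0.80, adjusted p = 0.0049). Utp20, which processes the precursor of the small ribosomal subunit, fell from 33.3 ± 1.08 to 20.8 ± 1.75 FPKM (−0.66, adjusted p = 0.0016), and Pes1, which acts in the large subunit's maturation, fell from 40.2 ± 4.62 to 25.2 ± 3.01 FPKM (−0.65, adjusted p = 0.0045). Of Pes1's windows 24.6% also occur in other genes, which include a gene on the opposite strand. The abundant nucleolar proteins Ncl (314 and 224 FPKM, adjusted p = 0.05013) and Npm1 (344 and 275 FPKM, adjusted p = 0.27) did not pass the test. The count that fell was 18 with the replicate block, 9 without mESC 2 or without mESC 3, 7 without mEpiSC 3, 9 with the fibroblast covariate, 6 with lines as a random block and 1, Utp20, with each line averaged.

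Of 28 tested targets in metabolism and growth, 0 rose and 10 fell, or 35.7% called, and the median was −0.36. Over all genes 37.3% were called in either direction and 14.2% were called lower. Slc1a5, a glutamine transporter, went from 53.8 ± 12.1 to 20.4 ± 16.4 FPKM (log2 fold change −1.58, adjusted p = 0.014), but EpiSC9 at 45.0 FPKM lay within the mESC range. Eif4ebp1, which restrains cap-dependent translation, fell from 246.8 ± 66.0 to 110.4 ± 59.98 FPKM (−1.25, adjusted p = 0.017), with 197.5 FPKM in the highest mEpiSC library and 193.3 FPKM in the lowest mESC library. Its call was lost without mEpiSC 3 (0.052). Tfrc, the transferrin receptor, fell from 152 ± 32.3 to 75.3 ± 15.2 FPKM (−1.001, adjusted p = 0.0041), and Slc7a5, an amino acid transporter, from 116 ± 22.3 to 61.3 ± 14.1 FPKM (−0.92, adjusted p = 0.0081). With the fibroblast covariate Slc1a5, Eif4ebp1 and Slc7a5 were not called (adjusted p 0.089, 0.14 and 0.054), and the list had 2 that rose and 2 that fell. The number that fell was 15 with the replicate block, 4 without mEpiSC 3, 5 without mESC 1 and 6 without mESC 3, mESC 4, mEpiSC 1 or mEpiSC 2, and 3 and 1 in the fits by line. With lines as a random block Eif4ebp1 and Slc7a5 were not called (0.058 and 0.059), and with each line averaged Slc1a5, Eif4ebp1 and Tfrc were not (0.17, 0.15 and 0.05004).

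Of 12 cell cycle targets, 1 rose and 2 fell (25.0% called against 37.3% of all genes), with a median of −0.01, or 2 and 2 with the replicate block. Ccnd2, the D-type cyclin long known as a MYC target, rose from 5.25 ± 2.90 to 29.0 ± 8.16 FPKM (log2 fold change 2.33, SE 0.34, adjusted p = 0.0012). Ccne1, the cyclin that drives entry into DNA synthesis, fell from 98.7 ± 24.4 to 44.8 ± 8.41 FPKM (−1.11, adjusted p = 0.0025). Mcm5, a subunit of the replicative helicase, fell from 152.8 ± 32.9 to 106.2 ± 11.6 FPKM (−0.50, adjusted p = 0.039), a call lost with the fibroblast covariate (0.30), in the fits by line (each 0.14) and without any library but mESC 1 and mEpiSC 4 (0.062 to 0.096). The D-cyclin kinase Cdk4 stood at 264.5 and 343.4 FPKM (adjusted p = 0.083).

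Of 11 tested genes known to be repressed by MYC, 5 rose and 0 fell, or 5 and 1 with the replicate block. The share called was 45.5%, with a median of 0.42, against 37.3% of all genes called and 23.1% called higher. Those that rose were Thbs1, Ctgf, Clu, Gas1 and Cdkn1b. Cdkn1b, a cyclin-dependent kinase inhibitor, rose from 17.6 to 27.8 FPKM (log2 fold change 0.62, adjusted p = 0.0073). Gas1, a growth-arrest gene of the cell surface, rose from 2.83 ± 1.24 to 10.4 ± 0.863 FPKM (1.62, adjusted p = 7.3e-04), although 17.0% of its windows occur in an antisense gene. Thbs1 and Ctgf, matrix proteins that fibroblasts also express, rose from 3.43 ± 3.41 to 22.4 ± 8.63 FPKM (2.63, adjusted p = 0.0028) and from 16.1 ± 8.26 to 66.5 ± 35.0 FPKM (1.96, adjusted p = 0.0047). Clu, a secreted chaperone, went from 4.22 ± 0.640 to 26.5 ± 30.9 FPKM (1.83, adjusted p = 0.036), with 72.4 FPKM in EpiSC9. Its call was lost when any 1 mESC library or mEpiSC 1 was left out (0.061 to 0.088). The Clu call was also lost with each line averaged (0.15), quantile normalization (0.051), no filter (0.057) and a pseudocount of 5 (0.061). With the fibroblast covariate the log2 fold changes were 1.59 for Thbs1, 2.13 for Ctgf, 1.37 for Gas1 and 2.27 for Clu, the last no longer called (adjusted p = 0.054). The inhibitors Cdkn1a (48.0 and 40.0 FPKM, adjusted p = 0.53) and Cdkn2b (2.07 and 2.98 FPKM, adjusted p = 0.73) did not pass the test.

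**Figure D5:**
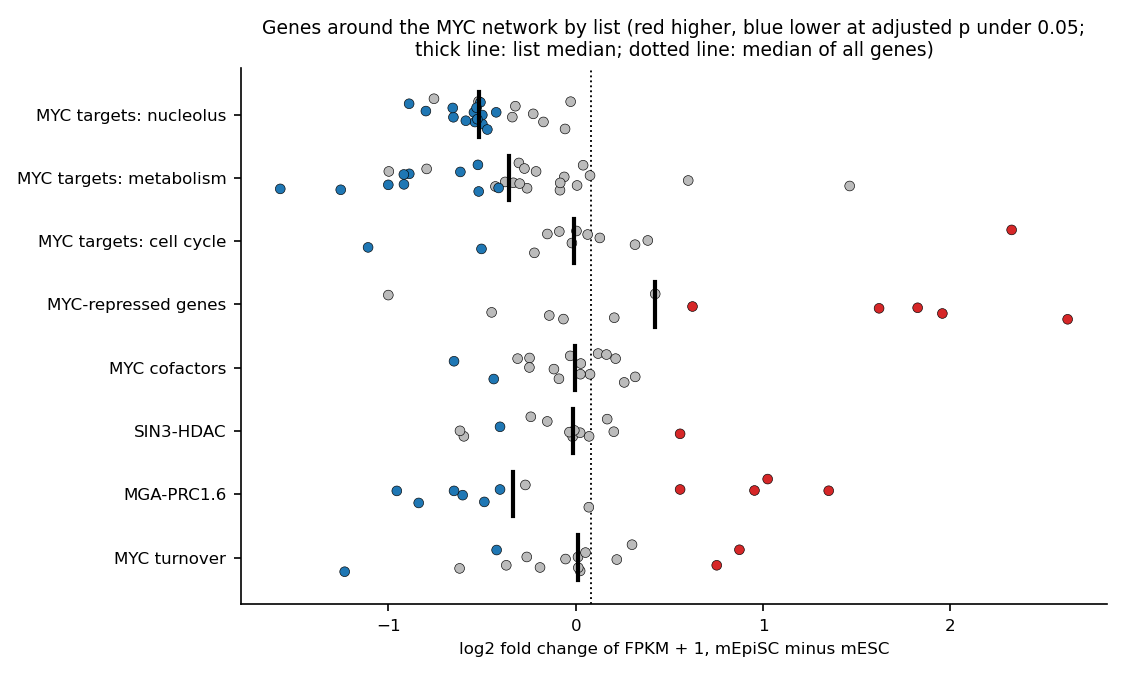
Log2 fold change of FPKM + 1, mEpiSC minus mESC (horizontal axis), of each tested gene in 8 lists around the network (vertical axis), with the list median as a thick line and the median of all genes as a dotted line. The nucleolar targets all lie left of 0 with a median of −0.51, and the PRC1.6 genes spread to both sides.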

How the data were processed

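RNA-seq of polyadenylated RNA gave 8 libraries, 4 of mESC and 4 of mEpiSC, grouped by the labels. The deposited values are FPKM per gene with a 95% interval and a status, for which the submitters' processing notes name TopHat2 2.0.6, Cufflinks 2.0.2 and the build mm9. What annotation, options and strand setting they used is not given in the sources used here. Tables are per library, and 0 columns of values per sample were left unused. Of 23699 entries, 712 of 248 symbols at several loci were left out. All members had status OK in every library. FPKM are not counts, so log2(FPKM + 1) was tested in R 4.3.3 with limma 3.58.1 and statmod 1.5.0 (trend, robust) for genes that reached 1 FPKM in 4 or more libraries, at an adjusted p under 0.05. A further limma fit gave each line its own mean, and both fits were checked on simulated data with planted changes. The simulated libraries varied independently, with no shared line or replicate effect, so the check does not bear on dependence between libraries. Deposited intervals, each given for 1 library and not for the spread between libraries, were 1.54% to 2.25% of the value for Mga and 8.80% to 24.4% for Mxd4.

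Members and lists were chosen with earlier results of these data known. Named genes were all members and relatives, up to 4 called genes of each list by size of change, the 5 genes most correlated with Myc and with Mycn (mean of at least 5 FPKM), and 3 checks of state. Other genes with values were chosen after these were seen. Shared sequence was counted in 50-base windows of transcripts, and genes with overlapping exons were listed, from GENCODE vM21 (GRCm38).

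States share replicate numbers but not lines. Across genes, the deviations from the group means correlated between libraries of the same number at 0.22, 0.15, 0.18 and 0.51 for replicates 1 to 4. All exceeded 0.1. Pairs of same-numbered libraries, which no label gives, entered only the replicate block, an alternative fit. Calls given without a named alternative come from the fit without pairs. The best correlation with another number was 0.12, 0.21, 0.21 and −0.22, so only replicates 1 and 4 fitted their own number best.

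Alternatives were the replicate block, lines as a random block (correlation 0.47), lines averaged to 1 value each, pseudocounts of 0.1 and 5, median ratio scaling and quantile normalization, no filter or a mean of 5 FPKM or more, no trend, replicates 1 to 3 only, a covariate for the fibroblast markers' mean, and each library left out. For the mEpiSC line test, leaving out EpiSC7 or mESC libraries was chosen after seeing the data.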

Additional observations from a re-analysis of the deposited data

Results flagged for a closer look

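In 11 of 110 groups of 4 libraries checked, 1 library stood apart from the others by more than Dixon's 95% limit. Chance flags about 1 in 20 such groups, and no explanation was tested for any of them.

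Among the members, Max in mESC 4 was 39.3 FPKM against 41.4 to 41.8 in the other mESC libraries. Mga in mEpiSC 4 was 14.3 FPKM against 17.5 to 17.6. Mycl1 in mESC 2 was 8.01 FPKM against 3.17 to 3.71, and Fgf5, the primed marker, was 8.61 FPKM in that same library against 0.263 to 1.64. Mycs in mEpiSC 1 was 0.076 FPKM, while the other mEpiSC libraries list it at 0.

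In the EpiSC9 library (mEpiSC 4), Slc1a5 was 45.0 FPKM against 10.9 to 13.4, Tfrc was 98.0 FPKM against 65.3 to 70.4, Clu was 72.4 FPKM against 7.99 to 16.9, and Yaf2 was 20.1 FPKM against 16.5 to 16.9. EpiSC9 has 1 library, so its line and its library cannot be told apart. Thbs1 in mEpiSC 1 was 35.2 FPKM against 16.9 to 19.8, and Ibtk in mESC 4 was 27.4 FPKM against 22.2 to 22.3.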

How the results depend on the processing

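Among the members, depth limits Mxd1, Mxd3 and Mxd4 most, at 8.92 FPKM or less. EpiSC5 and EpiSC9 have 1 library each, and state, medium and line cannot be told apart beyond 5 lines. The replicate block gave 3150 higher and 2055 lower genes; of the members it added Mxi1 and Mlx (2 higher, 4 lower) and of the relatives Mlxip (2 higher), and of the other named genes it changed only the call of Hdac1. No gene named and called for the state difference changed sign under these alternatives. Some that were not called did, among them Mnt with median ratio scaling (−0.07) and Mycn without mESC 1 (0.03). Calls over all genes were mostly higher on the deposited scale. They were near even with median ratio scaling (2128 higher and 2353 lower) and with quantile normalization (2188 and 2207).

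Counts that moved by over 1.5 times follow as higher or lower in mEpiSC; the cause was not tested. With the replicate block, SIN3-HDAC had 2 lower, turnover 4 lower, metabolism 1 higher, cell cycle 2 higher and MYC-repressed genes 1 lower. With 1 mean per line there were 865 higher and 557 lower genes, 0 members lower, 0 cofactors lower, 0 SIN3-HDAC higher and 0 lower, PRC1.6 2 higher and 3 lower, turnover 0 higher and 1 lower, nucleolar, metabolic and cell cycle targets 1 lower each, and repressed genes 3 higher. With lines as a random block there were 1046 lower genes, 1 cofactor lower, 0 SIN3-HDAC higher and 0 lower, turnover 1 higher and 1 lower, nucleolar targets 6 lower, metabolism 3 lower and cell cycle 1 lower. With the fibroblast covariate, cofactors had 1 lower, PRC1.6 3 lower, turnover 1 higher, nucleolar targets 9 lower, metabolism 2 higher and 2 lower, and cell cycle 2 higher and 1 lower. Median ratio scaling gave SIN3-HDAC 0 higher and 3 lower, turnover 4 lower and repressed genes 1 lower. Quantile normalization gave SIN3-HDAC 2 lower, turnover 4 lower, metabolism 1 higher, cell cycle 2 higher and repressed genes 1 lower. Replicates 1 to 3 only gave relatives 2 higher, cofactors 2 higher, SIN3-HDAC 3 lower, metabolism 2 higher, cell cycle 2 higher and repressed genes 1 lower. With a mean of at least 5 FPKM, which leaves out Mxd1, Mxd3 and Mxd4, there were 1597 higher genes, 0 members higher and 0 SIN3-HDAC lower. A pseudocount of 0.1 left 0 SIN3-HDAC lower, and no filter left 1 cell cycle target lower.

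Leaving out each library in turn gave 1843 to 2543 higher and 976 to 1945 lower genes, 1 to 2 members higher and 3 to 4 lower, 1 to 2 relatives higher, 0 cofactors higher and 2 to 3 lower, SIN3-HDAC 0 to 1 higher and 0 to 2 lower, PRC1.6 3 to 4 higher and 4 to 5 lower, turnover 1 to 2 higher and 2 to 3 lower, nucleolar targets 7 to 13 lower, metabolism 0 to 1 higher and 4 to 14 lower, cell cycle 1 to 2 higher and 1 to 2 lower, and repressed genes 4 to 5 higher and 0 to 1 lower. For lines it gave 0 to 1 members called among mESC and 0 to 2 among mEpiSC. Of the alternative values for single named genes, 998 kept their side of the threshold, 72 lost it and 13 gained it.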
